A study of Saccharomyces cerevisiae with 40 samples.

Results

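The first hour of NMD2 induction in a single yeast strain was read from 8 of the 40 arrays of the series. The 4 arrays of GAL-NMD2 cultures at 60 min were set against the 4 arrays of GAL-NMD2 cultures at 0 min, matched by biological replicate number, over all 9275 probe sets that were not controls. The series used Affymetrix arrays of Saccharomyces cerevisiae and followed 2 strains at 0, 10, 20, 40 and 60 min after galactose. Each strain and time had 4 replicates, which the design text calls independent. A strain and replicate number is read here as a single culture over time, which the sample titles do not state. The p-values measure the scatter of changes between replicates, after each culture's own level is removed, pooled over 10 groups on 40 arrays. Both strains carried nmd2::HIS3, a disruption of NMD2 by the HIS3 marker, in the host HFY1400. GAL-NMD2 cultures held a GAL1-NMD2 allele on a plasmid, and nmd2D cultures held an empty URA3 vector instead. The labels conflict on the medium: the design text describes raffinose medium without uracil to which galactose was then given, and each sample's growth protocol describes galactose medium. Because the GAL1 promoter answers to galactose, the sugar and NMD2 begin together in GAL-NMD2 cultures and cannot be told apart within that strain. The same hour in nmd2D is therefore given beside the results.

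NMD2 encodes a core factor of nonsense-mediated mRNA decay (NMD), the pathway that removes transcripts whose translation stops early. It bridges the helicase NAM7 (also called UPF1) and UPF3, and transcripts marked in this way lose their cap and are degraded from the 5-prime end. In yeast the substrates include mRNAs with nonsense mutations, retained introns, upstream reading frames or programmed frameshifts, and several ordinary mRNAs of telomere and metal genes. Galactose is sensed through GAL3, which relieves the repressor GAL80 and lets the GAL structural genes be transcribed.

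Values are MAS5 signals, on which every array had been scaled to nearly the same trimmed mean. The median signal of an array lay between 61.2 and 70.3 at 60 min and between 68.2 and 84.4 at 0 min, so the array median was lower at 60 min in all 4 cultures. Actin probe sets at the 3-prime and 5-prime ends had ratios of 1.42 to 2.79 at 60 min and 1.45 to 2.95 at 0 min. Changes are given as log2 of (signal + 16), 60 min minus 0 min, which understates changes of dim probe sets, and errors are SD over n = 4 cultures unless named as standard errors (SE). Each array reads a whole culture, so fewer cells with a transcript and less transcript per cell cannot be told apart. Replicates 1 and 2 stood apart at some genes. HUG1, a DNA damage response gene chosen after its values were seen, read 33.4 at 60 min and 35.5 at 0 min in replicate 2, against 2950.7 to 4621.2 at 60 min and 3470.3 to 4422.4 at 0 min in the other GAL-NMD2 cultures. Its change over the hour was log2 -0.07 and was not called. Without replicate 2 the comparison gave 1456 probe sets lower and 372 higher, against 1568 and 450 with it, and without replicate 1 it gave 1264 and 269.

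The induced gene was checked first. NMD2 read 1363.3, 1659.0, 1865.3 and 1726.6 at 60 min in replicates 1 to 4, against 982.8, 958.8, 1300.0 and 910.1 at 0 min. Every culture was higher at 60 min, and the lowest value at 60 min exceeded the highest at 0 min. The mean of 1654 ± 212 at 60 min against 1038 ± 177 at 0 min differed by 1.59-fold (limma adjusted p = 1.79e-05, log2 0.67, SE 0.11). Under 15 other ways of processing the change stayed between log2 0.57 and 0.84. Most of the rise had occurred by 20 min: NMD2 averaged 1038, 1304, 1628, 1507 and 1654 at 0, 10, 20, 40 and 60 min. In nmd2D the probe set read 889 ± 132 at 60 min and 895 ± 34.9 at 0 min, so it carries signal without a working gene, and its name marks it as shared between related sequences. It is a limited measure of how much NMD2 was made.

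Genes of galactose use rose over the same hour. GAL1, the galactokinase whose promoter drove the plasmid, read 3963.1, 2214.1, 4877.9 and 3592.4 at 60 min, against 78.8, 75.5, 179.3 and 99.9 at 0 min. The groups did not overlap, and GAL1 rose 29.9-fold (limma adjusted p = 1.31e-18, log2 4.90, SE 0.18). The permease GAL2 was 34.2-fold higher, the epimerase GAL10 20.8-fold and the uridylyltransferase GAL7 15.3-fold. The sensor GAL3 stood at 745 ± 154 at 60 min against 132 ± 31.8 at 0 min (5.15-fold) and the repressor GAL80 at 1127 ± 112 at 60 min against 407 ± 76.6 at 0 min (2.72-fold). GAL1 had already reached 1506 ± 456 at 10 min and 3046 ± 864 at 20 min. Of 14 galactose genes tested, 11 rose and none fell, with a median change of log2 1.16, beside 6.88% higher and 18.3% lower, 25.2% together, among 5656 genes with 1 probe set each. The list had 11 higher of 14 in nmd2D too, where the median was 1.17.

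**Figure D1:**
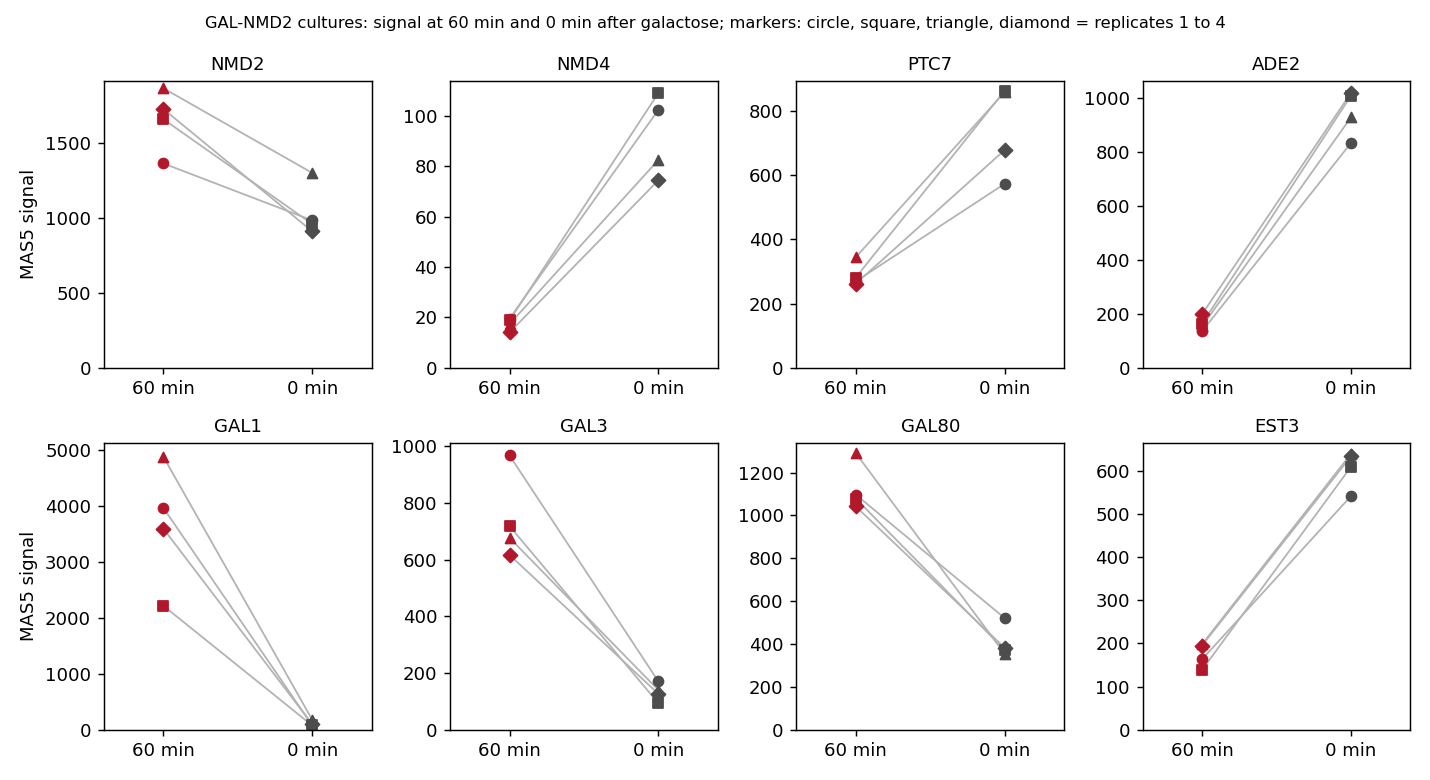
MAS5 signal (vertical axis, linear from 0) of 8 genes in the 4 GAL-NMD2 cultures at 60 min (red) and 0 min (grey). Each line joins the arrays of the same replicate number, read as a culture, and each marker shape is a replicate number. NMD2, GAL1, GAL3 and GAL80 are higher at 60 min in all 4 cultures, and NMD4, PTC7, ADE2 and EST3 are lower in all 4, with no overlap between the times in any of the 8.

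Across the array, falls were more frequent than rises under the deposited scaling. limma called 1568 probe sets lower (16.9%) and 450 higher (4.85%) of 9275, 21.8% in either direction, and 7257 were not called. The falls were also deeper, with a median of log2 -0.65 and 341 falls of 2-fold or more, against a median of 0.47 and 18 rises of 2-fold or more. The 4 values at 60 min lay wholly below those at 0 min at 890 probe sets (9.6%) and wholly above at 142 (1.53%). Called as well were 838 of these falls (9.04%) and 105 of these rises (1.13%). Of the called falls 1484 ran the same way in all 4 cultures, as did 413 of the called rises. Over all 9275 probe sets 3478 did so, among them 1581 that were not called. The calls were made on these same arrays, so the shared direction describes the choice.

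This split turned on the scaling. Lower probe sets were 77.7% of the calls as deposited, 34.6% with each array centred on its median, 52.3% after quantile normalization and 59.3% after cyclic loess. Centring gave 1045 lower and 1974 higher and moved the median of all probe sets to log2 0.15, against -0.02 as deposited. Changes below about that shift therefore have no settled sign. Without replicate 1 the rises numbered 269 and without replicate 4 they numbered 291, and with no culture block 753 probe sets were lower and 85 higher.

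Calls were spread unevenly over signal strength. In the dimmest of 5 equal classes of mean signal 4.20% of probe sets were lower, in the next 3 classes 19.7%, 23.8% and 24.9%, and in the brightest 11.9%. Rises went from 0.701% in the dimmest class to 8.41% in the brightest. The called falls had a median signal of 115 at 0 min and the called rises of 159, beside 78.8 over all probe sets. Of the falls, 1096 probe sets carried a single gene symbol, for 1052 genes, and 398 carried none, while 409 rises had a symbol, for 402 genes, and 36 had none.

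**Figure D2:**
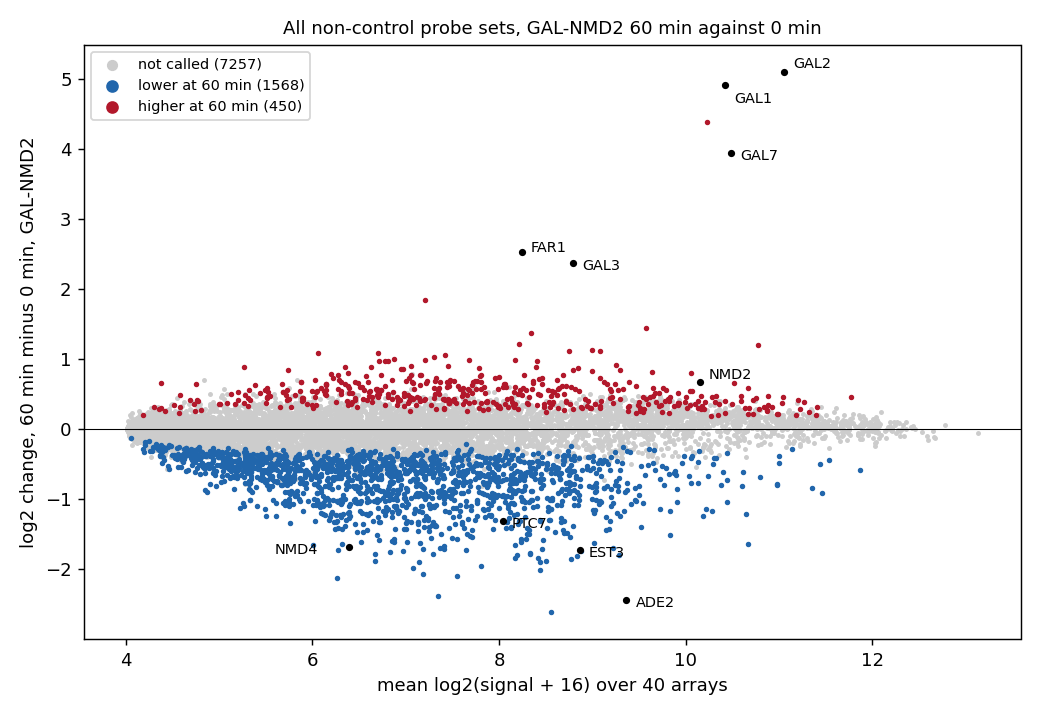
Change over the hour (vertical axis, log2, 60 min minus 0 min in GAL-NMD2) against mean level over 40 arrays (horizontal axis, log2 of signal + 16), with 1 point for each of 9275 probe sets; 1568 are called lower (blue), 450 higher (red) and 7257 neither (grey) as deposited, a balance that turns to 1045 lower and 1974 higher when arrays are centred on their median. GAL genes and FAR1 stand far above the rest, ADE2 is the deepest named fall, and NMD2 lies among the smaller rises.

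ADE2, an enzyme of purine synthesis, had the largest fall among probe sets with a single gene symbol. It read 135.0, 162.9, 153.1 and 198.2 at 60 min, against 833.5, 1008.5, 928.4 and 1019.2 at 0 min. The highest value at 60 min was far below the lowest at 0 min, and the fall was 5.43-fold (log2 -2.44, SE 0.11, limma adjusted p = 3.48e-16). Its mean was 947, 844, 536, 230 and 162 at 0, 10, 20, 40 and 60 min. Of 18 purine and one-carbon genes tested, 4 were lower and 1 higher, near the 18.3% lower and 6.88% higher over all genes. With no culture block 1 was lower. GCV1, of glycine cleavage, was next to ADE2 at log2 -0.59, a call lost with no culture block. The list median of -0.07 turned to 0.10 when arrays were centred.

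ISC10, YEL073C, RRT13, PET18, YIR043C and YOL153C had the next largest falls among those without overlap between the times. ISC10, needed for spore formation, read 44.4, 35.7, 57.3 and 44.1 at 60 min, against 322.0, 205.5, 330.4 and 163.6 at 0 min, a 4.29-fold fall (log2 -2.10, SE 0.16, limma adjusted p = 4.06e-11). The uncharacterized frame YEL073C fell at its dimmer probe set (log2 -2.07) and at the brighter, shared one (log2 -1.64). RRT13 read 102 ± 10.7 at 60 min against 463 ± 53.9 at 0 min (log2 -2.01), and PET18 32.1 ± 4.56 at 60 min against 175 ± 24.1 at 0 min (log2 -1.99). YIR043C (log2 -1.95, with related sequences on its probe sets) and YOL153C (log2 -1.90) followed.

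Transporters and single enzymes filled most of the other places among the 15 deepest. PPT2, which activates the mitochondrial acyl carrier protein, read 83.8, 98.6, 107.3 and 121.1 at 60 min, against 455.7, 440.4, 398.6 and 402.7 at 0 min (log2 -1.90, SE 0.14, limma adjusted p = 7.93e-12). DAL5, the allantoate permease, averaged 140 ± 30.6 at 60 min against 547 ± 93.2 at 0 min (log2 -1.85), and its other probe sets fell too (log2 -1.35 and -0.59). ARN2, a siderophore transporter (log2 -1.80), MAL11, an alpha-glucoside permease (log2 -1.79), and JLP1, a sulfonate dioxygenase (log2 -1.75), also fell. HRT1, the RING subunit of the SCF ubiquitin ligases, read 167 ± 55.5 at 60 min against 577 ± 117 at 0 min (log2 -1.73). PAU7, a seripauperin of a large gene family, fell (log2 -1.88) at a probe set that matches related genes. The deepest gene left outside this set of 15 was SHH4, at log2 -1.70, just beside EST3 at -1.72.

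**Figure D3:**
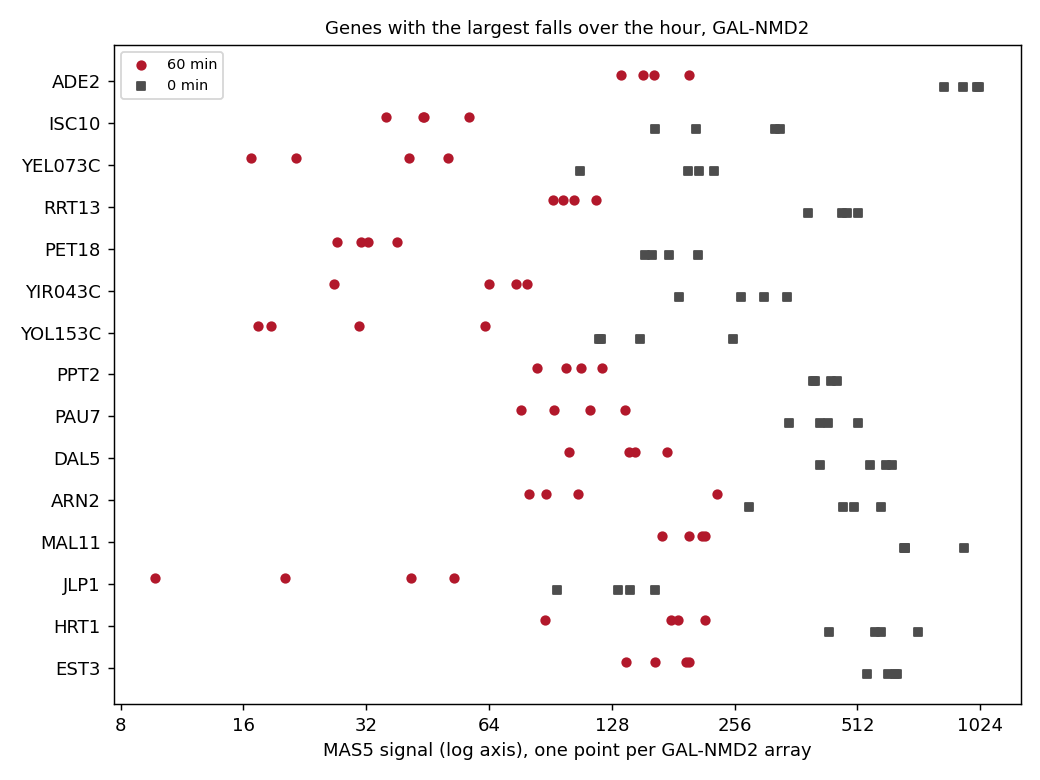
MAS5 signal (horizontal axis, log scale) of the 15 genes with the largest called falls, with 4 points for 60 min (red circles) above 4 for 0 min (grey squares) in each row. In every row the points at 60 min lie to the left of those at 0 min, from ADE2 at 135.0 to 198.2 against 833.5 to 1019.2 down to EST3 at 138.5 to 198.0 against 541.3 to 639.2.

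Transcripts listed as known substrates of NMD fell more often than genes at large. Of 17 tested, 11 were lower and 1 higher, with a median of log2 -0.60, beside 18.3% lower and a median of -0.02 over 5656 genes. With no culture block 7 were lower and none higher. Leaving out any culture left none higher and 10 or 11 lower. This list and the other lists were chosen with earlier results of these data known, so such shares may describe the choice.

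Telomere genes were 5 of the 11 that fell. EST3, a telomerase subunit translated through a frameshift, read 163.0, 138.5, 198.0 and 195.0 at 60 min, against 541.3, 609.2, 639.2 and 633.6 at 0 min (log2 -1.72, SE 0.12, limma adjusted p = 4.42e-12). A further probe set of EST3 fell (log2 -1.66). STN1 and TEN1, partners in capping chromosome ends, averaged 55.1 ± 14.9 at 60 min against 193 ± 46.5 at 0 min (log2 -1.55) and 27.2 ± 3.03 at 60 min against 94.5 ± 10.1 at 0 min (log2 -1.35). EST1, which brings telomerase to the end, fell to 23.1 ± 3.36 at 60 min, against 65.5 ± 28.6 at 0 min, and EST2, the reverse transcriptase, also fell (log2 -0.70). Among 17 telomere and silencing genes 7 were lower and 2 higher, with a median of -0.31, beside 18.3% lower and 6.88% higher over all genes. Without replicate 1 none were higher, with no culture block 6 were lower and none higher, and with arrays centred 7 were lower and 4 higher.

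The other substrates covered copper handling, arginine synthesis and magnesium uptake. COX19, a copper-binding protein of cytochrome oxidase assembly, read 85.8, 118.6, 82.2 and 106.9 at 60 min, against 247.0, 346.5, 241.9 and 314.9 at 0 min (log2 -1.41, SE 0.15, limma adjusted p = 1.61e-08), while the related COX23 fell less (log2 -0.50). ALR1, a magnesium transporter, fell (log2 -0.60), as did FZF1, a regulator of sulfite export (log2 -0.62). REV7, a subunit of DNA polymerase zeta, fell at a dim signal of 7.08 ± 0.746 at 60 min against 13.1 ± 3.12 at 0 min (log2 -0.33). The COX23, FZF1 and REV7 calls were lost with no culture block, COX23 also without replicate 1, and REV7 in 5 of 15 alternatives that include centring, quantile normalization and the loss of replicate 3. ADR1, an activator of genes for non-fermentable carbon, was the single rise (log2 0.39, SE 0.13, limma adjusted p = 0.0342), and that call was lost with no culture block and when any of the 4 cultures was left out. CTR2, PPR1, OAZ1, ABP140 and SPT10 were not called, at log2 -0.28, -0.05, -0.01, 0.02 and 0.14. OAZ1 and ABP140 are translated through frameshifts, as is EST3.

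CPA1, an arginine synthesis gene with an upstream reading frame, fell with a single culture apart. It read 1346.3, 1841.3, 1794.0 and 1681.9 at 60 min, against 1711.3, 3479.1, 3538.1 and 3676.0 at 0 min, where replicate 1 stood well below the other 3. All 4 cultures fell, by a mean of log2 0.84 (SE 0.11, limma adjusted p = 8.42e-07), but the values at the times overlapped and the call was lost with no culture block. The probe set for YOR302W, the upstream frame itself, was chosen after its values were seen. It read 729.2, 923.7, 486.5 and 899.9 at 60 min, against 730.6, 2463.5, 1156.5 and 2629.5 at 0 min (log2 -1.04, limma adjusted p = 8.40e-05), again with replicate 1 the lowest at 0 min. Of 19 genes with known upstream frames 3 were lower and none higher, a smaller share than the 18.3% lower and 6.88% higher over all genes. With no culture block 1 was lower, and the list median of -0.02 turned to 0.15 when arrays were centred.

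The factors of NMD did not move together. NMD4, which binds the helicase NAM7, read 19.5, 18.8, 17.3 and 14.0 at 60 min, against 102.5, 109.2, 82.6 and 74.5 at 0 min (log2 -1.69, SE 0.12, limma adjusted p = 7.93e-12). It stood at 92.2, 95.1, 50.7, 18.2 and 17.4 at 0, 10, 20, 40 and 60 min, so its low level was reached by 40 min. EBS1, a relative of EST1 with a role in NMD, read 146.9, 168.6, 176.4 and 147.8 at 60 min, against 205.9, 301.7, 309.5 and 296.4 at 0 min (log2 -0.73, SE 0.10, limma adjusted p = 1.76e-06). NAM7 and UPF3 were not called (log2 -0.12 and 0.33). UPF3 was called higher once arrays were centred or normalized by quantiles or loess.

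REC107 and PTC7, which have regulated introns, fell. REC107, whose intron is removed in meiosis, fell at both of its probe sets, with log2 -1.50 at the brighter and -1.05 at the dimmer. PTC7, a mitochondrial protein phosphatase with an intron that can be retained, read 269.4, 281.3, 344.9 and 262.0 at 60 min, against 574.0, 864.6, 860.2 and 679.4 at 0 min (log2 -1.30, SE 0.16, limma adjusted p = 2.98e-07). PTC7 lies beside NMD2 in gene order, and its level in nmd2D was 132 ± 32.7 at 60 min and 150 ± 28.9 at 0 min. PTC7 in GAL-NMD2 thus stood above nmd2D at both times, a difference in level that was not tested. YHR078W, on the other side of NMD2 and chosen after its values were seen, fell (log2 -0.88). Of 12 genes with regulated introns 3 were lower and 2 higher, beside 18.3% lower and 6.88% higher over all genes. The higher ones include DBP2, an RNA helicase that limits its own mRNA through its intron, at log2 0.91 and 0.98 on its probe sets. The list median of -0.05 turned to 0.11 when arrays were centred and to 0.03 after quantile normalization.

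Genes that laboratory strains often carry as mutant markers were among the falls. HIS3, the gene used to disrupt NMD2, read 342.2, 1057.1, 1523.3 and 1231.9 at 60 min, against 972.1, 1611.8, 2057.2 and 1977.8 at 0 min, lower in every culture although the groups overlapped (log2 -0.79, SE 0.13, limma adjusted p = 1.82e-05). Its other probe set fell (log2 -0.80), and the call at the brighter one was lost with no culture block. LEU2, of leucine synthesis, fell at all 3 of its probe sets, with log2 -0.58 at the brightest. CAN1, the arginine permease, averaged 325 ± 95.9 at 60 min against 874 ± 220 at 0 min (log2 -1.40). TRP1, of tryptophan synthesis and chosen after its values were seen, read 69.6, 176.8, 98.9 and 219.5 at 60 min, against 296.4, 469.6, 394.6 and 551.2 at 0 min (log2 -1.58, SE 0.17, limma adjusted p = 2.02e-08). URA3 was not called, at 319 ± 105 at 60 min against 317 ± 119 at 0 min. The labels give no alleles of these genes in the host other than nmd2::HIS3.

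Nitrogen catabolite, metal uptake, maltose and seripauperin genes fell in part, beside 18.3% lower and 6.88% higher over all genes. Of 23 nitrogen catabolite genes 10 were lower and 1 higher, with a median of log2 -0.37, led by DAL5 and CAN1. Metal uptake had 11 lower and none higher of 28 as deposited (median -0.22), and 7 lower with no culture block. With arrays centred 10 were lower and 3 higher (median -0.05), and after quantile normalization or cyclic loess 11 were lower and 3 higher. The deepest were the siderophore transporter ARN2 and the reductase FRE3, at 107 ± 65.3 at 60 min against 300 ± 73.2 at 0 min (log2 -1.52). ENB1, another siderophore transporter chosen after its values were seen, fell (log2 -1.51). Maltose genes had 5 lower of 7 (median -0.57), among them the permease MAL31 at log2 -1.16 with MAL11 above, and 3 were lower with no culture block, with centring or after quantile normalization. Seripauperins and cell wall mannoproteins had 6 lower of 9 (median -0.49), with PAU4 at log2 -0.98 after PAU7, and 3 with no culture block. In none of these 4 lists did the median change sign under centring, quantile normalization or cyclic loess.

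Of 20 meiosis and sporulation genes 11 were lower, none higher and 9 not called (median log2 -0.37), beside 18.3% lower over all genes. The lower ones numbered 7 without replicate 1 and 5 with no culture block. With arrays centred 8 were lower and 3 higher, and 1 was higher without replicate 4. After ISC10 and REC107, the kinase IME2, chosen after its values were seen, read 29.3, 40.0, 35.4 and 29.3 at 60 min, against 80.2, 95.3, 118.5 and 52.5 at 0 min (log2 -1.02). ISC10, REC107 and IME2 each separated 60 min from 0 min without overlap. Of 20 mating genes 6 were lower, led by the fusion gene FUS2 at log2 -1.07, and 1, FAR1, was higher. The lower mating genes numbered 3 without replicate 3, after quantile normalization or after cyclic loess, 2 with centring and 1 with no culture block, while 3 were higher with centring, quantile normalization or cyclic loess, and the list median of -0.15 turned to 0.02 when arrays were centred.

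Stress and reserve carbohydrate genes had calls in both strains. Over all genes 18.3% were lower and 6.88% higher in GAL-NMD2. Of 31 genes of the environmental stress response 17 were lower and none higher (median log2 -0.45), with 10 lower without replicate 1, 11 in a fit to the compared arrays alone and 7 with no culture block. In nmd2D 13 of the 31 were lower (median -0.50), beside 0.96% lower over all probe sets there, and with no culture block 4 probe sets of the whole array were lower in nmd2D. ALD3, an aldehyde dehydrogenase, read 18.9, 26.8, 43.0 and 34.3 at 60 min, against 132.0, 61.6, 106.6 and 76.1 at 0 min (log2 -1.22), and MSC1 fell too (log2 -1.09). Of 21 trehalose, glycogen and glycerol genes 12 were lower and none higher (median -0.45), against 8 lower in nmd2D (median -0.44). The lower ones numbered 7 without replicate 1 and 5 with no culture block. This list overlaps the stress list, at least at the gene that gives the median of both, so their counts are not separate. The glycogen branching enzyme GLC3 fell (log2 -1.08), a call lost with no culture block, and the glycogen synthase GSY2 fell as well (log2 -1.02). TPS2, of trehalose synthesis and chosen after its values were seen, averaged 399 ± 150 at 60 min against 785 ± 179 at 0 min (limma adjusted p = 5.80e-05).

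Single genes of gluconeogenesis and sulfur use fell. PCK1, the gateway enzyme of gluconeogenesis, read 122 ± 31.6 at 60 min against 371 ± 63.3 at 0 min (log2 -1.50), and JEN1, the lactate permease, fell (log2 -0.76), a call lost without replicate 1 and in a fit to the compared arrays alone. The list had 5 lower and 1 higher of 16, with 2 lower without replicate 1, with no culture block or in a fit to the compared arrays alone, and 3 without replicate 3, with centring or after quantile normalization. Its median of -0.34 was -0.06 without replicate 1. Of 24 sulfur genes 5 were lower and 1 higher, beside 18.3% lower over all genes. The lower ones numbered 3 without replicate 1 or replicate 3, with centring or in a fit to the compared arrays alone and 2 with no culture block, and the median of -0.07 turned to 0.09 when arrays were centred. After JLP1, MET1, of siroheme synthesis, fell (log2 -0.83).

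After GAL1, GAL2, GAL7 and GAL10 the largest rise was that of FAR1. FAR1, an inhibitor of the G1 cyclin kinase, read 1513.1, 510.2, 368.1 and 309.1 at 60 min, against 218.1, 67.3, 50.2 and 53.9 at 0 min. Replicate 1 was highest at both times, the groups did not overlap, and FAR1 rose 5.78-fold (limma adjusted p = 3.67e-08, log2 2.53, SE 0.28). NCA3 rose 3.58-fold, to 251 ± 74.5 at 60 min against 57.3 ± 16.5 at 0 min, and HTC1 2.59-fold. GCY1, an aldo-keto reductase of the galactose list, read 1912.3, 2286.1, 2554.6 and 2647.8 at 60 min, against 1014.7, 957.3, 1019.4 and 1038.5 at 0 min (log2 1.20). VTS1, an RNA-binding protein, MLF3, DBP2, the cell cycle repressor YOX1 and RGL1 rose by log2 1.06, 1.03, 0.98, 0.97 and 0.89. The next gene without overlap, SQT1, rose by 0.82 and was left outside the 15. Some genes whose values overlapped rose by more than several of these, among them SDD1, FUR4, NOG2 and RNR1 at log2 1.21, 1.13, 1.12 and 1.11.

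Of 32 ribosome biogenesis genes 12 were higher, none lower and 20 not called (median log2 0.39), beside 6.88% higher among all genes, with 6 higher without replicate 1 and with no culture block. NOG2, a GTPase of the large subunit, read 503.6, 580.0, 791.2 and 441.2 at 60 min, against 152.9, 315.1, 497.0 and 163.9 at 0 min (log2 1.12, SE 0.16, limma adjusted p = 4.25e-06). Every culture rose although the groups overlapped, and RRP9 rose by 0.85 in the same way. In nmd2D the list median was 0.34, with 2 of the 32 called higher. Of 23 G1 and S phase genes 8 were higher, none lower and 15 not called (median 0.23), and 1 was higher with no culture block. With arrays centred the higher genes numbered 27 and 16 in these lists. RNR1, the large subunit of ribonucleotide reductase, rose by log2 1.11, a call lost with no culture block. POL30, the replication clamp, rose by 0.97 on the log2 scale over the cultures together but read 585.3 at 60 min against 629.7 at 0 min in replicate 1, and that call was lost in 5 of 15 alternatives.

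Several further lists are given beside 18.3% lower and 6.88% higher over all genes. Ribosomal protein, glycolysis, mitotic and hexose transport genes lay below both shares as deposited. Pyrimidine genes reached 30% higher, heat shock genes and histones 25% higher, and phosphate and DNA damage genes 25% lower. Respiration, mRNA decay, amino acid and translation factor lists also exceeded the share higher over all genes. Ribosomal proteins had 1 lower and 2 higher of 76, with a median of log2 0.04 that turned to -0.01 after quantile normalization and -0.04 after cyclic loess, and 15 were higher with arrays centred. Glycolysis genes had 1 lower of 16, mitotic genes 2 lower of 18, and translation factors 2 higher of 20, while with arrays centred no mitotic gene was lower, 6 were higher, and 11 translation factors were higher. Tricarboxylic acid cycle and respiration genes had 5 higher of 30, a count that was 3 without replicate 1, 2 without replicate 2 or 3 and none without replicate 4 or with no culture block. With arrays centred 11 were higher, and after quantile normalization 1. General mRNA decay genes had 3 higher of 21 and none lower, and none higher without replicate 1 or with no culture block, against 8 higher with arrays centred and 6 after quantile normalization. Heat shock genes had 2 lower and 5 higher of 20, with 8 higher without replicate 3, 3 without replicate 4 and 10 with arrays centred. SSA4, an inducible Hsp70, fell (log2 -0.72). Amino acid synthesis genes had 2 lower and 4 higher of 29, and 8 higher with arrays centred. Phosphate genes had 4 lower and 1 higher of 16, pyrimidine genes 1 and 3 of 10, and histones none and 1 of 4. DNA damage genes had 3 lower and none higher of 12. The hexose transport list had 2 lower and none higher of 12, HXT4 and the glycerol transporter STL1. With no culture block these 6 lists, from amino acid synthesis on, had 1, 1, 0, 0, 2 and 1 lower and none higher.

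**Figure D4:**
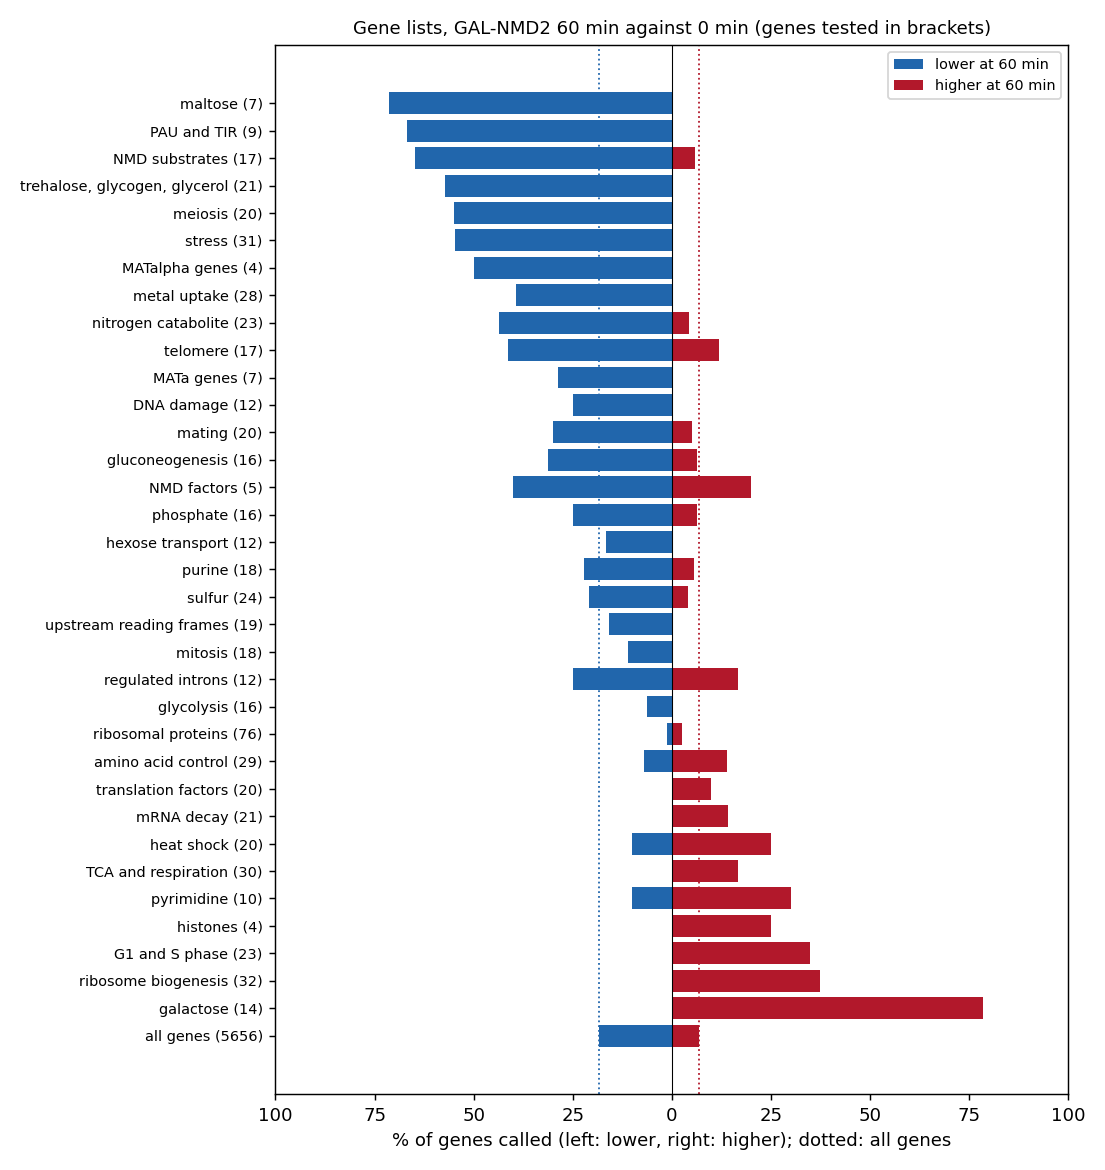
Percent of genes called lower (blue, to the left) and higher (red, to the right) at 60 min against 0 min in GAL-NMD2 for 34 gene lists and for all 5656 genes, with the number of genes tested in brackets; the dotted lines mark 18.3% lower and 6.88% higher over all genes. Maltose, seripauperin, NMD substrate, reserve carbohydrate, meiosis and stress lists exceed 50% lower, counts that are lower with no culture block, and galactose genes reach 78.6% higher; centring the arrays turns the medians of the mating, purine, sulfur, upstream frame, regulated intron, NMD factor and hexose transport lists.

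The same strain at 40 min against 10 min was read on arrays that the comparison of 60 with 0 min does not use. limma called 1496 probe sets lower (16.1%) and 484 higher (5.22%) there. With no culture block 644 were lower and 61 higher, and with arrays centred the rises outnumbered the falls. Of the 1568 falls over the hour, 1131 were called lower and none higher between 10 and 40 min, with a median of log2 -0.55. Of the 450 rises, 144 were called higher and 1 lower, with a median of 0.27. ADE2 (log2 -1.83), NMD4 (log2 -1.68) and EST3 (log2 -1.31) fell in that interval, while GAL7 and NMD2, at 0.68 and 0.20, were not called. Both comparisons come from the same 4 cultures and the same fit.

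In nmd2D, which lacked NMD2 over the same hour, ADE2, EST3 and NMD4 were not called while FAR1, NCA3 and the GAL genes rose. limma called 89 probe sets lower (0.96%) and 80 higher (0.863%) at 60 min against 0 min in nmd2D, 1.82% in all. Of the 1568 probe sets that fell in GAL-NMD2, 59 were lower and 1 higher in nmd2D, and their median change was log2 -0.65 in GAL-NMD2 against -0.04 in nmd2D. Of the 450 that rose, 61 were higher and none lower, and their median change was 0.47 in GAL-NMD2 against 0.25 in nmd2D. ADE2 read 1013 ± 136 at 60 min and 964 ± 225 at 0 min in nmd2D, EST3 581 ± 84.2 and 580 ± 87.0, and NMD4 103 ± 14.6 and 100 ± 13.1. By contrast FAR1, HTC1 and VTS1 rose there by log2 2.07, 1.27 and 1.04, GAL1 by 4.95, and NCA3 to 217 ± 57.6 at 60 min against 64.6 ± 11.4 at 0 min.

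The levels of the called sets show when the change took place. The median level of the falling probe sets in GAL-NMD2 was log2 6.96, 6.97, 6.65, 6.31 and 6.15 at 0, 10, 20, 40 and 60 min. In nmd2D the same probe sets stood at 7.13, 6.99, 6.97, 6.97 and 7.03. The rising probe sets went through 7.41, 7.62, 7.76, 7.95 and 8.002 in GAL-NMD2 and 7.51, 7.53, 7.62, 7.75 and 7.97 in nmd2D. These sets were chosen on the 60 and 0 min values of GAL-NMD2, so the levels at those times describe the choice. At 10 min the falling set in GAL-NMD2 was near its level at 0 min, and at 20, 40 and 60 min it stood successively lower. The median level over all probe sets took a shallower course of the same shape there, with 6.52, 6.54, 6.43, 6.35 and 6.33. In nmd2D the level over all probe sets was 6.60, 6.49, 6.51, 6.51 and 6.60.

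The difference between the strains was tested as the change in GAL-NMD2 minus the change in nmd2D, which uses the same GAL-NMD2 arrays again. It was lower at 836 probe sets (9.01%) and higher at 23 (0.248%), 9.26% in all. With no culture block 256 were lower, and with arrays centred fewer were lower and more higher than as deposited. Of the 15 deepest falls all had a called difference, from log2 -1.38 at ARN2 to -2.53 at ADE2. They were picked for their falls in GAL-NMD2, which are part of this difference, so these calls largely describe the choice. Of the 15 largest rises without overlap between the times none had, including FAR1 (0.46, limma adjusted p = 0.665), NCA3 (0.34, limma adjusted p = 0.728) and GAL1 (-0.04, limma adjusted p = 0.973). SDD1, whose values overlapped and which was chosen after its values were seen, rose by log2 1.21 in GAL-NMD2 and 2.36 in nmd2D, a called difference of -1.15. Among the lists, the 11 metal uptake genes that fell all had a called difference, as had 9 of the 17 NMD substrates, 7 of 23 nitrogen catabolite genes and 6 of 20 meiosis genes, 1 of 31 stress genes and none of 32 ribosome biogenesis genes. NMD2 itself had a difference of 0.69 (SE 0.16, limma adjusted p = 0.00214). STL1, a glycerol transporter, fell less in GAL-NMD2 than in nmd2D, with log2 -0.90 in GAL-NMD2 against -1.70 in nmd2D (difference 0.80, limma adjusted p = 0.0415). With no culture block no probe set was higher for this difference in limma, against 39 at an unadjusted p under 0.05, so both calls were lost there.

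**Figure D5:**
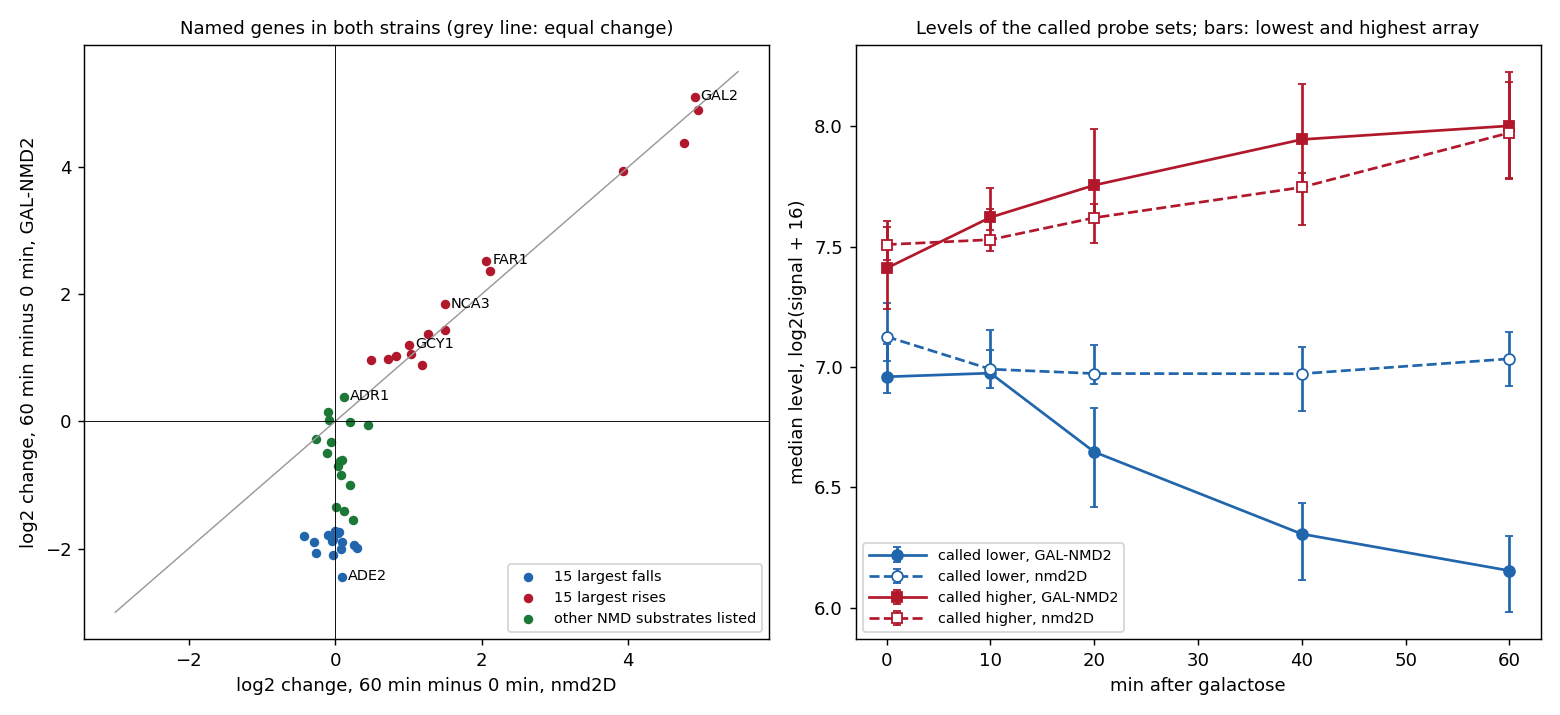
Left, change over the hour in GAL-NMD2 (vertical, log2) against nmd2D (horizontal, log2) for the 15 largest falls (blue) and the 15 largest rises (red) without overlap between the times and for the other listed NMD substrates (green), with the line of equal change; falls lie near 0 in nmd2D and rises lie near the line. Right, median level of the probe sets called lower (blue) and higher (red) at 0 to 60 min in GAL-NMD2 (solid, filled) and nmd2D (dashed, open), with bars from the lowest to the highest array; at 60 min the falling set stands at 6.15 in GAL-NMD2, against 7.03 for nmd2D.

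Some falls had no gene symbol, and some genes had several probe sets. The probe set with the deepest fall of all has no symbol in the annotation and read 73.4 ± 16.9 at 60 min against 524 ± 49.4 at 0 min (log2 -2.61, SE 0.13, limma adjusted p = 1.41e-15). Another without a symbol fell to 27.6 ± 1.52 at 60 min, against 217 ± 57.0 at 0 min. Among genes with several probe sets and at least 1 fall, 73 in all, every probe set fell at 20 genes, some were not called at 51 and 1 or more rose at 2. The transposon frame YGR109W-B rose at the probe set the naming rule took, 1587 ± 172 at 60 min against 916 ± 171 at 0 min (log2 0.80, limma adjusted p = 1.49e-05). Its other probe sets match many copies of the element, and most were not called. Another of its probe sets fell (log2 -1.03), so no direction is given for the element. Of 5639 pairs adjacent in gene order, both genes fell in 237, both rose in 44 and they went opposite ways in 140. Over all genes 18.3% were lower and 6.88% higher, and the pair counts were not tested against these shares. GAL7, GAL10, GAL1 and the uracil permease FUR4, chosen after its values were seen, form a run of 4 neighbours that rose, and TRP1 and GAL3 are neighbours that went opposite ways.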

How the data were processed

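The authors deposited MAS5 intensity values, 1 per probe set and array, on a linear scale; per the submitters' processing notes the tool was MAS5, with a version and settings not given in the sources used. Per the labels' protocols, RNA was taken with hot phenol and biotinylated cRNA was made from 6 ug of total RNA. Of 9335 probe sets 60 were controls. The platform annotation pairs 6504 of the remaining 9275 with a single symbol, 328 with several and 2443 with none. Arrays have no read depth, so the number of arrays limits precision. From the deposited values, log2(signal + 16) was fitted with limma 3.58.1 in R 4.3.3: a mean for each of 10 groups over all 40 arrays, a block for each culture (strain and replicate number), eBayes with a trend, and Benjamini-Hochberg adjusted p under 0.05 over 9275 probe sets. Tested were 60 against 0 min in each strain, the difference between these, and 40 against 10 min in GAL-NMD2. Deviations from group means at 60 and 0 min correlated at 0.64 to 0.71 for the same replicate number. For different numbers they correlated at -0.43 to -0.00. Deviations from a group mean cancel over its replicates, so negative values between different numbers are partly built in. Whether a number stands for the same culture or for shared handling was not tested. For gene lists, each gene was represented by its brightest probe set, and no list test was made. Named genes were the checks (NMD2, HIS3, URA3 and GAL genes), the 15 largest falls and 15 largest rises without overlap, up to 2 called genes of each of 34 lists, all NMD substrates and factors, and the 5 largest differences between strains in each direction where that many were called. The members and lists were chosen with earlier results of these data known. On simulated data of 9275 probe sets, 78% of 1.5-fold and 98% of 2-fold changes were recovered in this comparison, with 7 false calls. The simulation drew independent normal noise around culture means, with the residual spread of the fit. Changes were added at 50 probe sets per fold size, with rises and falls balanced. It took the block and the scaling as right, so the 7 false calls do not measure errors from either. Alternatives changed the block, the arrays fitted, the pseudocount, the filter on dim probe sets, the scaling, the trend and the cultures included. Probe sets with an s, i or f suffix can match related sequences, and their genes are uncertain.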

Additional observations from a re-analysis of the deposited data

Results flagged for a closer look

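Of 180 sets of 4 arrays examined (90 genes at 60 and at 0 min), 8 held a value far from the other 3, and chance alone marks about 1 set in 20. Replicate 1 stood apart in 5 of them. At 0 min MAL11 read 934.8 there against 666.9 to 669.6 in the others, CPA1 1711.3 against 3479.1 to 3676.0, EBS1 205.9 against 296.4 to 309.5 and YHR078W 401.7 against 714.1 to 723.4. At 60 min FUS2 read 26.4 in replicate 1 against 15.2 to 15.7. Replicate 2 stood apart at PPR1 at 60 min (94.3 against 61.2 to 64.6) and at HUG1, with 33.4 at 60 min and 35.5 at 0 min, against 2950.7 or more in the other cultures. HUG1 read 34.3 ± 9.42 at 60 min and 33.0 ± 7.98 at 0 min in nmd2D, and what sets replicate 2 apart was not tested.

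The change over the hour differed between the strains at 836 probe sets in the lower and 23 in the higher direction. Each of the following is the change in GAL-NMD2 minus that in nmd2D, on the log2 scale, with a limma adjusted p under 0.05. The 15 largest falls gave -2.53 at ADE2, -2.07 at ISC10, -1.81 at YEL073C, -2.09 at RRT13, -2.28 at PET18, -2.21 at YIR043C, -1.61 at YOL153C, -1.99 at PPT2, -1.84 at PAU7, -1.82 at DAL5, -1.38 at ARN2, -1.69 at MAL11, -1.79 at JLP1, -1.78 at HRT1 and -1.73 at EST3. SHH4, just outside them, gave -1.84. The 15 were picked for their falls in GAL-NMD2, which are part of the difference, so their calls largely describe the choice. The NMD factors gave -1.72 at NMD4, -0.84 at EBS1 and 0.69 at NMD2. The other NMD substrates gave -1.79 at STN1, -1.52 at COX19, -1.36 at TEN1, -1.20 at EST1, -0.92 at CPA1, -0.75 at EST2, -0.70 at ALR1 and -0.69 at FZF1.

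Transport, metabolic, marker and seripauperin genes gave -1.55 at FRE3, -1.33 at PCK1, -1.37 at CAN1, -1.16 at MAL31 and -0.67 at GSY2. They also gave -1.07 at PAU4, -1.13 at MET1, -0.48 at GCV1, -0.80 at HIS3 and -0.58 at LEU2. The difference was -1.35 at REC107, -1.13 at PTC7, -0.94 at FUS2 and -0.80 at SSA4. Among genes chosen after their values were seen it was -1.56 at TRP1, -1.31 at ENB1, -1.23 at YOR302W, -0.89 at IME2 and -0.88 at YHR078W. The transposon frame YGR109W-B gave 0.56 and STL1 0.80.

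At 3 further genes chosen after their values were seen the larger change was in nmd2D. RIO1, a protein kinase, read 80.2 ± 21.7 at 60 min and 80.7 ± 11.7 at 0 min in GAL-NMD2, while nmd2D read 251 ± 78.9 and 85.0 ± 25.6 (difference -1.42). SDD1 rose by log2 1.21 in GAL-NMD2 and 2.36 in nmd2D (difference -1.15). SUR7, a membrane protein, was not called in GAL-NMD2 at log2 -0.28 and fell by 1.36 in nmd2D (difference 1.08).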

How the results depend on the processing

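Of the 101 named genes 93 were called, and most were chosen for large changes, so few reversals could occur among them. Under 15 alternatives the 101 named genes gave 1500 values, of which 1395 kept direction and call, 100 lost the call, 5 gained it and 0 reversed. With no replicate block, which ignores the pairing within cultures, 753 probe sets were lower and 85 higher at 60 min against 0 min, and 30 of the 101 genes lost their call. The same fit gave 256 lower and 0 higher for the difference between strains (39 higher at unadjusted p under 0.05 in limma), 4 lower and 12 higher in nmd2D, and 644 lower and 61 higher for 40 against 10 min. A replicate block by number alone gave 5 higher for the difference. Fitting only the arrays compared gave 276 higher over the hour, 22 lower and 38 higher in nmd2D, and 306 higher for 40 against 10 min. Without probe sets below the median signal, where fewer were tested, 942 were lower over the hour and 907 for 40 against 10 min. Centring gave 1045 lower and 1974 higher over the hour, 503 lower and 160 higher for the difference, and 883 lower and 2248 higher for 40 against 10 min. Quantile normalization gave 1092, 81 and 920 higher and cyclic loess 883, 51 and 776 higher for these comparisons. Leaving out each culture gave 269 (without replicate 1) to 381 higher over the hour, 5 to 29 higher for the difference, 27 to 71 lower and 32 to 43 higher in nmd2D, and 237 to 393 higher for 40 against 10 min. The causes of these shifts were not tested. In the dimmest class 4.20% of probe sets were lower, and no detection call was used.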
